A study of Mus musculus with 8 samples.

Results

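Caveolae are flask-shaped pits of the plasma membrane, and the genes of 8 of their components were followed here across 8 arrays of mouse aortic endothelium. The genes were Cav1, Cav2, Cavin1, Cavin2, Cavin3, Ehd2, Pacsin2 and Plvap. They were taken as every probe set of the array that the platform annotation pairs with 1 of these symbols alone, with Ptrf read as Cavin1. Each gene had 1 probe set, so the set held 8 probe sets of 72688, and all 8 genes were among the 16232 genes tested.

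Tamoxifen-treated mice (EKO, 4 arrays) were compared with vehicle-treated littermates (control, 4 arrays). All were female, and all carried the allele Cdh5-CreERT2, an inducible Cre recombinase driven by the VE-cadherin gene of endothelium, together with floxed Mef2c alleles (Mef2c f/f). Starting at 10 weeks of age, EKO mice received 5 daily injections of tamoxifen in sunflower seed oil with 10% ethanol, and control mice received that oil and ethanol alone. The thoracic aorta was collected on day 14 counted from the first injection, and each array held RNA flushed with TRIzol from the lumen of a single aorta. Since tamoxifen went to the EKO mice only, effects of the drug and of the deletion cannot be told apart. The comparison asks which endothelial transcripts differ once Mef2c, a MADS-box transcription factor, has been deleted.

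Values are log2 expression as the authors deposited it, so a difference of 1 is a doubling of signal. Differences are EKO minus control, tested with limma across all 16232 genes with Benjamini-Hochberg adjustment. Mef2c itself read 9.56, 9.73, 9.66 and 10.03 in EKO arrays, against 9.62, 9.79, 9.88 and 9.80 in control arrays, and its single probe set spans the whole transcript cluster, so it is no check of the deletion. Levels of endothelial markers spanned a wide range, with Pecam1 between 18.07 and 18.23, Cdh5 between 16.23 and 16.52 and Robo4 between 5.93 and 6.54. The mean of the 14 tested endothelial markers was 12.7 ± 0.073 in EKO arrays and 12.7 ± 0.11 in control arrays (SD, n = 4 each). Of these, 6 (Robo4, Emcn, Erg, Sox17, Sox18 and Icam2) stayed on all 8 arrays below the 95th percentile of the array's neg controls (11.49 to 11.84), and Robo4 also below the median of those controls (7.34 to 7.45). Adipocyte markers varied more, from 8.18 to 10.43 in EKO arrays and from 8.63 to 11.01 in control arrays (mean of 12 genes). Among them Ucp1 ran from 11.14 on EKO array 2 to 16.73 on control array 3, and Cox7a1 from 10.22 to 14.69 on the same arrays. Of the 12, 7 lay below that 95th percentile on all 8 arrays. Smooth muscle markers lay between 7.78 and 8.39 in EKO arrays and between 7.71 and 8.001 in control arrays (mean of 9 genes). Of the 10 listed, 5, Myh11 among them, lay below the median of the neg controls on every array. Acta2 and Tagln lay above it on every array. Acta2 ran from 9.68 on control array 1 to 12.39 on EKO array 1, and Tagln from 9.09 to 11.03 on the same arrays. In RNA from a whole flushed layer, fewer cells of a type and less RNA per cell cannot be told apart.

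Endothelial cells, adipocytes and smooth muscle cells are rich in caveolae. Caveolin 1 inserts into the inner leaflet of the membrane and oligomerises, and the cavins assemble on it as a coat from the cytosolic side. EHD2 sits at the neck and steadies the pit, pacsin 2 bends membrane, and the protein of Plvap, PV1, forms the diaphragm that spans the opening in many endothelia. In endothelium caveolae are known for buffering membrane tension, for transcytosis and for holding endothelial nitric oxide synthase (Nos3) in an inhibited state on caveolin 1.

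None of the 8 genes differed between the groups at an adjusted p under 0.05, a threshold that 0% of the 16232 genes passed with limma. At an unadjusted p under 0.05 the count was 0 of 8, where 8.93% of all genes passed. The differences of the 8 genes ran from -0.24 (Cav1) to 0.31 (Plvap), with 6 below 0 and 2 above it and a median of -0.03. Over all genes tested the median was -0.02, and 55.1% lay below 0. Groups did not overlap for 1 of the 8, Cav1, against 6.08% of all genes. The plot of levels by array shows the narrow bands of most of these genes beside the wide scatter of Plvap.

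**Figure D1:**
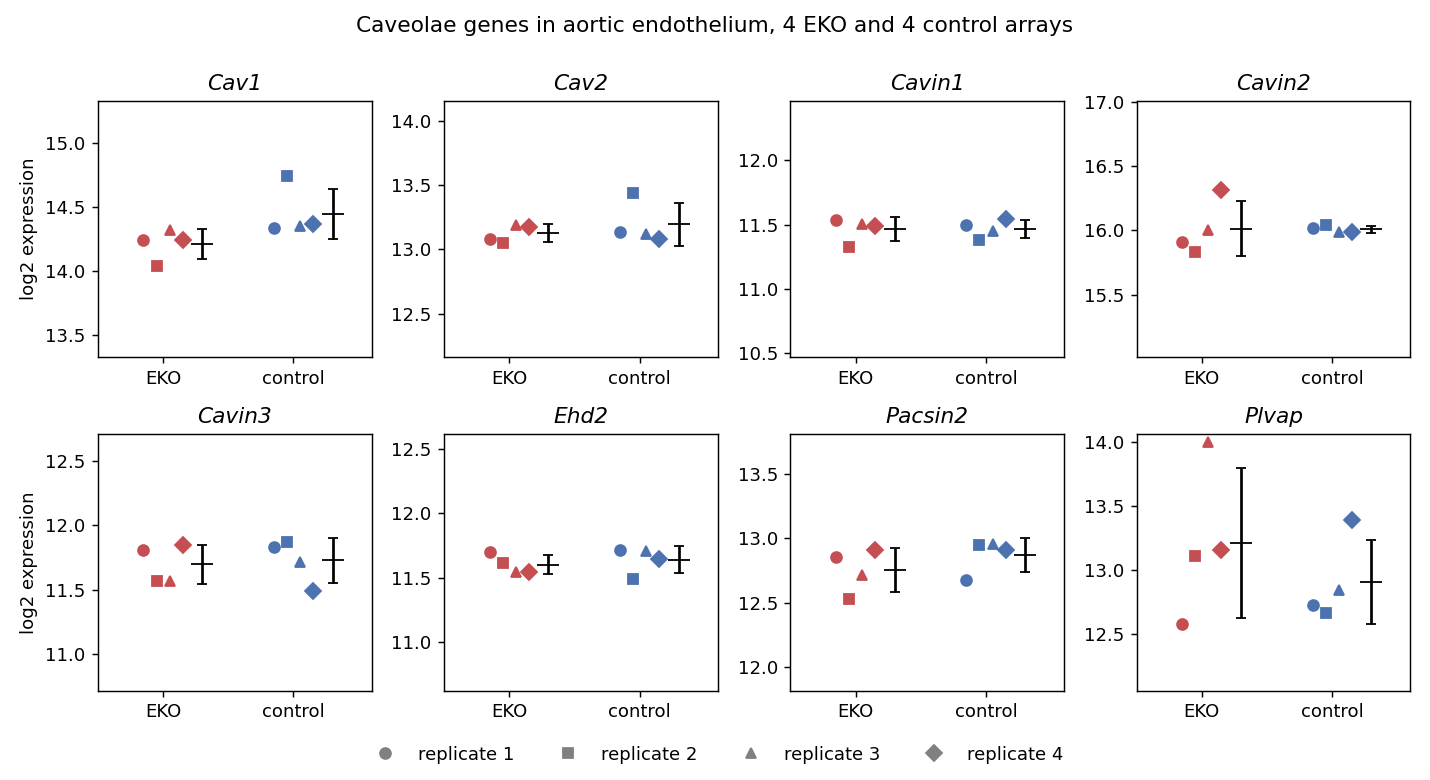
Log2 expression of the 8 caveolae genes on each array, EKO left of control, with a marker shape for each replicate number and, beside the points, the group mean with its SD (n = 4). Every panel spans 2 log2 units, and Cav1 is the panel in which all EKO points lie below all control points, while Plvap reaches 14.00 on EKO array 3.

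The caveolins are described first, since they form the scaffold. Cav1 and Cav2 are neighbours on chromosome 6 in the RefSeq annotation, with 0 annotated genes between them, and their promoter windows (250 bases before and 50 after an annotated start, RefSeq, GRCm38.p6, both on the + strand) are shown because this pair had the highest correlation over arrays of all pairs of members. Capitals mark every match to 6 motifs searched on both strands: the MEF2 consensus and the CArG box consensus of serum response factor, the TATA box spelled TATAAA, the CCAAT box, the GC box spelled GGGCGG, and the AP-1 site spelled TGACTCA or with its central base as G. The windows run 5′ to 3′ along the gene.
Cav1 (chr6:17306085-17306384): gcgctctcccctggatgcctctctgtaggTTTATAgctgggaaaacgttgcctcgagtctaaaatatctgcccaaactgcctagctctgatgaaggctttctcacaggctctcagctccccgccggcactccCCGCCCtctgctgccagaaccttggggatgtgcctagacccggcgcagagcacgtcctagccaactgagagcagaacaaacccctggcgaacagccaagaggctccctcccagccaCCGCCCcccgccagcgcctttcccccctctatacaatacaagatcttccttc
Cav2 (chr6:17280935-17281234): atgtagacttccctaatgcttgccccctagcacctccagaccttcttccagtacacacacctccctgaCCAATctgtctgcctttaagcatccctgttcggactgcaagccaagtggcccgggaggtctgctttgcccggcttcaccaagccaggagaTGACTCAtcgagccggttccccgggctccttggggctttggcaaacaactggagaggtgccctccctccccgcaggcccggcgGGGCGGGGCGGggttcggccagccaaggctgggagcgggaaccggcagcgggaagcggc

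The Cav1 window held a TATA box on the opposite strand at -221 to -216 from the start and GC boxes at -118 to -113 and -2 to 4, where -1 is the last base before the start. The Cav2 window held a CCAAT box at -182 to -178, an AP-1 site at -92 to -86 and a pair of GC boxes that overlap, at -9 to -4 and -4 to 2. A second annotated Cav1 start had 0 matches. The MEF2 consensus matched 0 of the 10 windows annotated for 6 of the 8 genes, and 3.19% of 32851 windows of the same length in RefSeq. A motif match is a stretch of letters and says nothing on binding, and no match says only that the letters are not in this window.

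Cav1 was lower in each EKO array than in any control array. It read 14.24, 14.04, 14.32 and 14.24 in EKO arrays 1 to 4, against 14.33, 14.74, 14.35 and 14.37 in control arrays 1 to 4. The highest EKO array (14.32) and the lowest control array (14.33) lay only 0.02 apart, and the groups overlapped once the arrays were quantile-normalized again. With each array centred on its median they did not overlap, and the difference was -0.31 (limma adjusted p = 0.467). Centring lowered the difference of every gene alike, and the median over all genes went from -0.02 to -0.09. Means were 14.2 ± 0.12 in EKO and 14.4 ± 0.19 in control arrays (SD, n = 4 each). The difference was -0.24 (SE 0.11, 95% confidence interval -0.48 to 0.01), an estimate of 85.0% of the control level, with a limma unadjusted p of 0.0622 and an adjusted p of 0.574. Genes that were lower in EKO without overlap made up 2.67% of all genes tested.

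Control array 2 held much of the Cav1 difference. Without it the difference was -0.14, and it was -0.18 without EKO array 2, the lowest. With the adipocyte marker mean as a covariate the difference was -0.25 and with the smooth muscle marker mean -0.26. In these means 7 of 12 adipocyte and 8 of 9 smooth muscle markers lay below the 95th percentile of the neg controls on all 8 arrays. Whether the mix of cells bears on the Cav1 difference was not tested. Cav1 ranked 1758 of 16232 by p.

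Cav2, which joins caveolin 1 in mixed oligomers and depends on it to reach the membrane, differed less. It read 13.08, 13.05, 13.19 and 13.18 in EKO arrays, against 13.14, 13.44, 13.12 and 13.08 in control arrays. The groups overlapped, and control array 2 stood alone at the top. The difference was -0.07 (SE 0.092, interval -0.28 to 0.14, limma adjusted p = 0.818), and without control array 2 it was 0.01.

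Cav1 and Cav2 shared their extremes, both being highest on control array 2 and lowest on EKO array 2. Over the 8 arrays Pearson r was 0.872 (exact permutation p = 0.0194, adjusted over 28 pairs 0.272) and Spearman rho 0.357 (exact permutation p = 0.389, adjusted 0.924). Without these 2 arrays r was -0.185, so the relation rests on them. Within the groups r was 0.805 over 4 EKO arrays and 0.977 over 4 control arrays, each again with that group's extreme array in it.

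**Figure D2:**
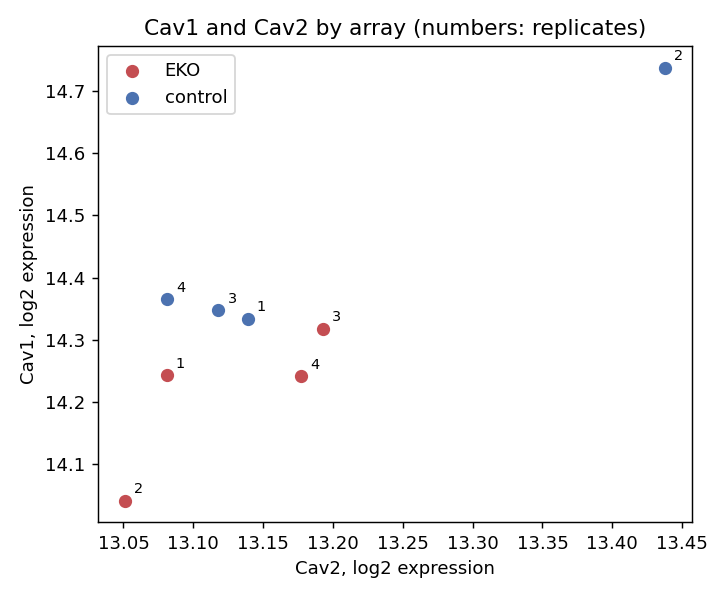
Log2 expression of Cav1 (vertical) against Cav2 (horizontal) on each array, EKO and control in different colours, numbered by replicate. Control array 2 lies at the upper right (14.74 and 13.44) and EKO array 2 at the lower left (14.04 and 13.05), and the other 6 arrays show no rise of Cav1 with Cav2.

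The cavins form the coat, and their differences lay within 0.03 of 0. For the coat gene that caveola formation requires, Cavin1, and for Cavin2, the member whose SD differed most between the groups as a ratio, the promoter windows are shown with the same motifs in capitals.
Cavin1 (chr11:100970566-100970865, - strand): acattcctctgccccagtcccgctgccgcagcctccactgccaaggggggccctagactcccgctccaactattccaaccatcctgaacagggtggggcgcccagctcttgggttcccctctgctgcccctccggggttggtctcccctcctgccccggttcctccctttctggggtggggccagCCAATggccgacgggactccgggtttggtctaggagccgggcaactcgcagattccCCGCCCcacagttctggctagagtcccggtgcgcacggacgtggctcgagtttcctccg
Cavin2 (chr1:51288876-51289175, + strand): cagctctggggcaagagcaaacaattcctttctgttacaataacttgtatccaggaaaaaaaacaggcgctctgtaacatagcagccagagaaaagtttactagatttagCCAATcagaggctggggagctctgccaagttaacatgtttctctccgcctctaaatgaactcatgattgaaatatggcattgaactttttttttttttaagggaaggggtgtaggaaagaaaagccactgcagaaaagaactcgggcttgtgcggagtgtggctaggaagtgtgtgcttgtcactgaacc

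The Cavin1 window held a CCAAT box at -65 to -61 and a GC box on the opposite strand at -9 to -4. The Cavin2 window held a CCAAT box at -140 to -136 and none of the other motifs. With 43.3% G or C bases it was the lowest in GC content of the 10 windows, whereas the Cavin1 window had 67.0%. Over the 10 windows 7 held a CCAAT box, 6 a GC box, 2 an AP-1 site, 1 a TATA box and 0 a CArG box. The 2 windows of Cavin1 overlap almost wholly, so the same CCAAT box and GC box count for both. Cav1 and Pacsin2 also have more than 1 window, so the 10 are not independent, and their shares were not tested. Of all 32851 windows 37.4% held a CCAAT box, 35.7% a GC box, 5.20% an AP-1 site, 13.6% a TATA box and 1.63% a CArG box.

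Cavin1 read 11.54, 11.33, 11.51 and 11.49 in EKO arrays, against 11.50, 11.38, 11.45 and 11.54 in control arrays. These ranges lay almost on top of each other. The difference was -0.0032 (SE 0.073, interval -0.17 to 0.16, limma adjusted p = 0.991). On all 8 arrays Cavin1 lay below the 95th percentile of the neg controls, as did Ehd2 on 4 arrays and Cavin3 on 2, so this interval is one of probe signal and sets no bound on the transcript. Cavin1 had the smallest spread of the 8 genes, a pooled SD within groups of 0.082, and 86.8% of all genes tested varied more.

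Cavin2 encodes a phosphatidylserine-binding cavin that helps to shape the pit. It read 15.91, 15.83, 16.00 and 16.31 in EKO arrays, against 16.02, 16.04, 15.99 and 15.99 in control arrays. The EKO arrays held both the lowest and the highest value, while the control arrays lay close together. The SD was 0.21 in EKO and 0.027 in control arrays, a difference in spread that was not tested. The means differed by 0.01 (SE 0.10, interval -0.23 to 0.24, limma adjusted p = 0.989). Quantile normalization (-0.06), centring of the arrays on their medians (-0.07) and leaving out EKO array 4 (-0.09) each turned the sign.

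Cavin3, a cavin first known as a binding protein of protein kinase C delta, read 11.81, 11.57, 11.57 and 11.85 in EKO arrays, against 11.83, 11.88, 11.72 and 11.49 in control arrays. Each group held high and low arrays. The difference was -0.03 (SE 0.11, interval -0.28 to 0.22, limma adjusted p = 0.942), and it was -0.11 without control array 4 and 0.02 without control array 2.

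The membrane-shaping genes differed little as well. Ehd2, the gene of the ATPase at the caveolar neck, read 11.70, 11.61, 11.55 and 11.54 in EKO arrays, against 11.72, 11.49, 11.70 and 11.65 in control arrays. Its lowest value thus fell on control array 2, the array where both caveolins were highest. The difference was -0.04 (SE 0.076, interval -0.21 to 0.14, limma adjusted p = 0.881). It came to -0.01 when control array 1 was left out and to -0.09 when control array 2 was.

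Pacsin2, whose F-BAR protein bends membrane during caveola formation, read 12.86, 12.53, 12.72 and 12.91 in EKO arrays, against 12.68, 12.95, 12.96 and 12.91 in control arrays. Of the 4 EKO arrays 3 lay below the control mean. The difference was -0.12 (SE 0.11, interval -0.36 to 0.12, limma adjusted p = 0.721). It was -0.04 without EKO array 2, the lowest, and -0.18 without control array 1.

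Plvap had the largest difference and the widest spread of the 8 genes. It read 12.58, 13.11, 14.00 and 13.16 in EKO arrays, against 12.73, 12.66, 12.84 and 13.39 in control arrays. EKO arrays held both the lowest and the highest value of the 8. Means were 13.2 ± 0.59 in EKO and 12.9 ± 0.33 in control arrays (SD, n = 4 each), a difference of 0.31 (SE 0.29, interval -0.35 to 0.96, limma adjusted p = 0.738). The pooled SD within groups was 0.475, and 5.51% of all genes tested varied more.

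Single arrays decided the size of the Plvap difference. Leaving out EKO array 3 brought it to 0.04, leaving out EKO array 1 to 0.52, and leaving out control array 4 to 0.47. The interval allows any EKO level between 78.5% and 195% of control, which includes differences larger than that of Cav1 in both directions.

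**Figure D3:**
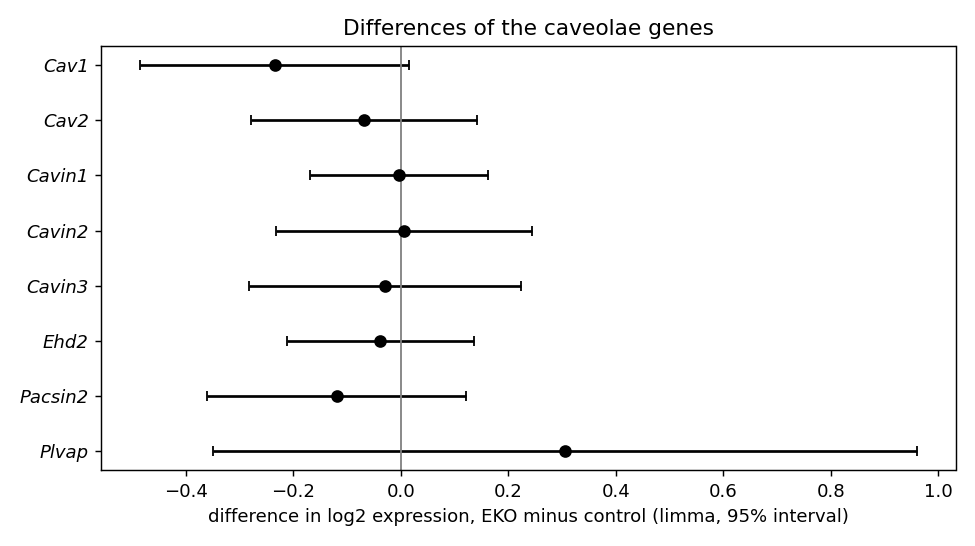
Difference in log2 expression, EKO minus control, of the 8 caveolae genes from limma (points) with 95% confidence intervals (bars, 4 arrays a group). Every interval includes 0, the Cav1 interval reaches it only at its upper end (0.01), and the Plvap interval is the widest.

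The genes were then compared across arrays. EKO array 2 held the lowest level of 5 of the 8 genes, Cav1, Cav2, Cavin1, Cavin2 and Pacsin2, and it held the lowest level of 22.6% of all genes tested. Among the EKO arrays alone it was lowest for 6 of the 8 genes. That held for 32.0% of all genes tested and for 42.9% of those with a mean above 12. Of the 8 arrays it had the lowest median of pos controls (10.62) and the highest median over all probe sets (6.24). It also had the lowest adipocyte marker mean (8.18), the lowest endothelial marker mean of the EKO arrays (12.57) and the highest neutrophil marker mean (9.32, against 6.67 to 7.47 on the other EKO arrays and 6.07 to 7.94 on control arrays). Of the endothelial markers, Emcn read 8.18 on EKO array 2, against 9.09 to 10.20 on the other EKO arrays. Pecam1, Tie1 and Vwf were also lowest of the EKO arrays there, by less, whereas Cdh5 was the highest of the 8 arrays (16.52). Control array 2 held the highest level of 3 genes, Cav1, Cav2 and Cavin3, and the highest of 16.3% of all genes. The relation of the caveolae genes to neutrophil markers was not tested, while those to adipocyte and endothelial markers were tested over the 8 arrays.

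**Figure D4:**
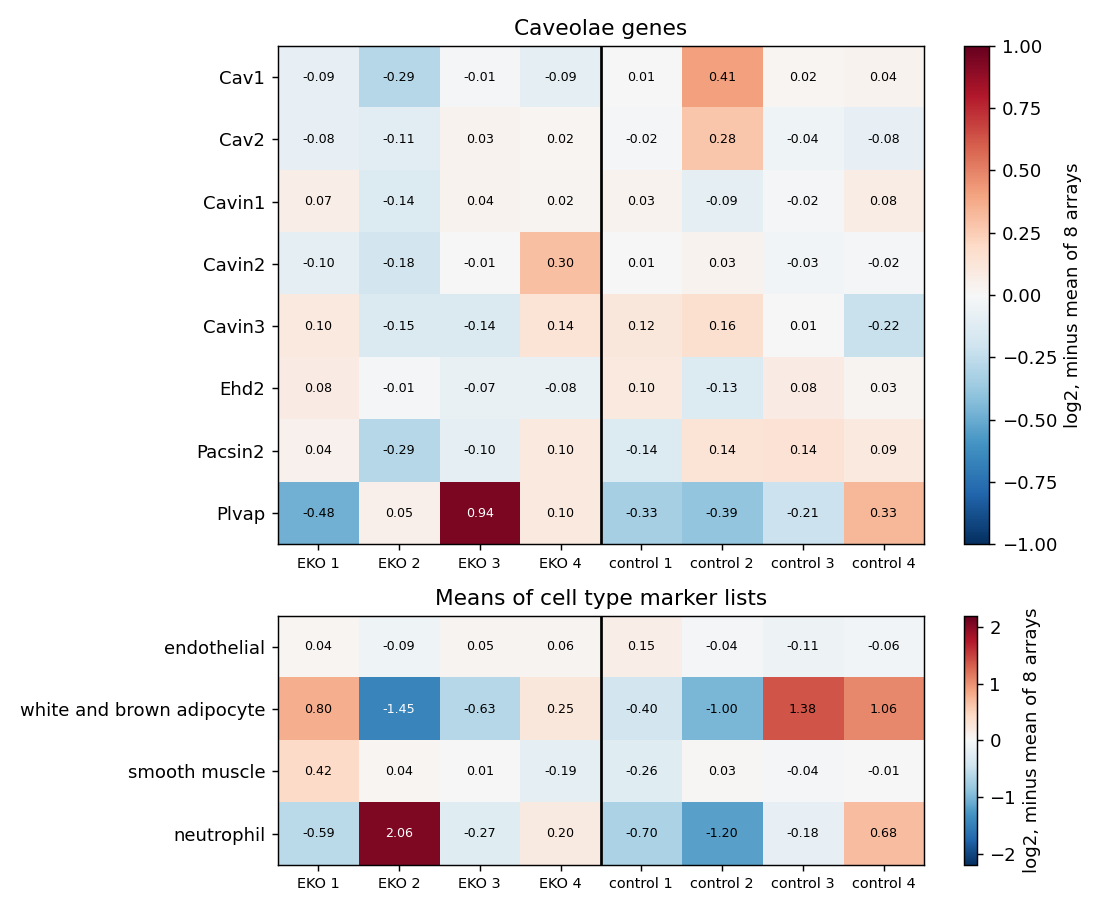
Deviation from the mean of the 8 arrays, in log2 units, for the 8 caveolae genes (top) and for the means of 4 marker lists (bottom, on a wider colour scale), with EKO arrays left of the line and control arrays right of it. EKO array 2 is below the mean for Cav1, Cav2, Cavin1, Cavin2, Cavin3, Ehd2 and Pacsin2, and control array 2 stands out for Cav1 and Cav2.

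As a group the 8 genes did not vary together. Of 28 pairs 13 had a negative Pearson r, 3 had an unadjusted exact permutation p under 0.05 and 0 passed after adjustment (smallest adjusted p = 0.272). Besides Cav1 with Cav2, these were Cav2 with Ehd2 (r = -0.726, exact permutation p = 0.0161, adjusted 0.272; rho = -0.50, p = 0.216, adjusted 0.924) and Cavin3 with Plvap (r = -0.714, exact permutation p = 0.0380, adjusted 0.354; rho = -0.571, p = 0.151, adjusted 0.846). Without the 2 arrays farthest from the median of the first gene, r was -0.738 for Cav2 with Ehd2 and -0.824 for Cavin3 with Plvap. For Cav2 with Ehd2 it was -0.763 within EKO and -0.911 within control arrays, and for Cavin3 with Plvap -0.630 within EKO and -0.987 within control arrays (4 arrays each). On deviations from the group means r was 0.932 for Cav1 with Cav2, -0.859 for Cav2 with Ehd2 and -0.727 for Cavin3 with Plvap, with permutation p adjusted 0.0771, 0.0976 and 0.271. These p-values came from all orders of the 8 arrays, although deviations sum to 0 within each group. They are therefore not exact and may be too small. On these deviations Cav1 with Ehd2 had an r of -0.755 (permutation p adjusted 0.253, with the same limit), against -0.410 on the values themselves.

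Levels of the 8 genes were set against the means of adipocyte, smooth muscle and endothelial markers, 24 relations in all. Of the tested markers, 7 of 12 for adipocytes, 8 of 9 for smooth muscle and 6 of 14 for endothelium lay below the 95th percentile of the neg controls on all 8 arrays. So did Cavin1, and its r are thus relations of probe signal. On the deposited values none of the 24 relations had an unadjusted exact permutation p under 0.05. Cavin1 (r = 0.680, exact permutation p = 0.0649, adjusted 0.840; rho = 0.548, p = 0.171, adjusted 0.741) and Pacsin2 (r = 0.674, exact permutation p = 0.0700, adjusted 0.840; rho = 0.548, p = 0.171, adjusted 0.741) came closest, both with adipocyte markers. Without EKO array 2 and control array 3 r was 0.784 for Cavin1 and 0.297 for Pacsin2. For Cavin1 it was 0.855 within EKO and 0.555 within control arrays, and for Pacsin2 0.931 within EKO and 0.342 within control arrays. Cav1 had an r of -0.008 with adipocyte markers, and this small value hid opposite signs within EKO (0.600) and control arrays (-0.701). On the deposited values no gene's relation with the endothelial marker mean had an r above 0.509, which was that of Cavin1. Centring each array on its median, which subtracts the same value from gene and markers, gave larger r. With endothelial markers it was then 0.761 for Cavin1, 0.593 for Cavin3 and 0.578 for Cavin2 (exact permutation p adjusted 0.227, 0.497 and 0.497), and with adipocyte markers 0.834 for Cavin1, 0.790 for Ehd2 and 0.773 for Pacsin2 (exact permutation p adjusted 0.126, 0.227 and 0.227).

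The genes most alike to each member in their levels over the 8 arrays were sought among 10821 others, and r is given as a description with no test. Each r is among the highest of 10821 over only 8 arrays, and how high such r run by chance was not tested. Cav1 was followed most closely by Ncam1 (0.973), a neural cell adhesion molecule, by the adenylyl cyclase Adcy5 (0.971) and by Dnal4 (0.958), a dynein light chain. Ncam1 read 11.13, 10.77, 11.24 and 10.93 in EKO arrays, against 11.25, 11.92, 11.13 and 11.33 in control arrays, with the same extreme arrays as Cav1. Cav2 was followed by the mitochondrial enzyme gene Pck2 (0.987), Cplane1 (0.969) and Slf2 (0.966). Cavin1 was most like Eif3c (0.961), Irak2 (0.942) and Gak (0.941). Tie1, the endothelial receptor tyrosine kinase, was second for Cavin2 (0.982), between Cdk13 (0.986) and Adal (0.973). It read 14.24, 14.18, 14.33 and 14.62 in EKO arrays, against 14.39, 14.42, 14.31 and 14.31 in control arrays. For Cavin2 and Tie1, r was 0.999 within EKO and 0.981 within control arrays. Tie1 is 1 of the 14 tested endothelial markers, and with the mean of these markers Cavin2 had an r of 0.410 (exact permutation p adjusted 0.988). Emcn, another marker in that mean, ran from 8.18 on EKO array 2 to 10.85 on control array 1.

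The remaining members were followed by Cep83 (0.955), Polg (0.931) and Tm7sf3 (0.930) for Cavin3, by Mrfap1 (0.967), Edem1 (0.966) and Inip (0.964) for Ehd2, and by Polr2f (0.988), Cep20 (0.983) and Ubxn2b (0.980) for Pacsin2. Plvap had the lowest likeness, with Zbtb11os1 at 0.919, Bbs12 at 0.912 and Rsl1 at 0.899. None of the 8 members was among the 3 most alike to another member. Of the genes named as most alike, Dnal4, Bbs12 and Mrfap1 lay on all 8 arrays below the median of the neg controls. Adcy5, Pck2, Inip, Rsl1 and Adal, among others, read lower on every array than Cavin1, whose own r are relations of probe signal. The r of these genes are thus relations of probe signal too.

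Other genes of caveolar biology were drawn from a pair of lists. The first, of caveolar accessory proteins, held 24 genes with paralogues of the members, dynamins, flotillins and kinases, of which 19 were tested. With limma 0 passed the adjusted threshold. In EKO arrays 8 were higher and 11 lower in mean, where 55.1% of all genes were lower, and the median difference was -0.01. The muscle paralogues Cav3 (4.09 to 4.34 in EKO arrays and 4.34 to 4.54 in control arrays) and Cavin4 (3.73 to 4.16 in EKO arrays and 3.80 to 3.86 in control arrays) lay below the level filter of 6.14 and were not tested.

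Stom, the gene of the lipid raft protein stomatin, was the only gene of this list with an unadjusted p under 0.05 (1 higher, where 5.42% of all genes were higher at that p). It read 12.94, 13.09, 12.99 and 13.24 in EKO arrays, against 13.09, 12.72, 12.66 and 12.72 in control arrays. Control array 1 lay among the EKO arrays and the other 3 control arrays below them. The difference was 0.26 (SE 0.11, unadjusted p = 0.0467, limma adjusted p = 0.552). The next genes by p were Prkca (-0.33), a protein kinase C that phosphorylates caveolar proteins, the vesicle SNARE gene Vamp2 (-0.09) and the flotillin gene Flot2 (0.14), with limma adjusted p between 0.585 and 0.636.

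The second list held 28 genes of endothelial proteins reported in or regulated at caveolae, of which 23 were tested. With limma 0 passed the adjusted threshold and 0 had an unadjusted p under 0.05, where 8.93% of all genes did. In EKO arrays 8 were higher and 15 lower in mean, where 55.1% of all genes were lower, with a median of -0.07 against -0.02 over all genes. The 4 with the smallest p were all lower in mean. Trpv4, a mechanosensitive calcium channel, read 9.88, 9.70, 9.91 and 9.87 in EKO arrays, against 10.03, 9.82, 10.09 and 10.17 in control arrays, a difference of -0.18 (SE 0.092, limma adjusted p = 0.587). The cholesterol exporter Abca1 differed by -0.29, the Wnt co-receptor gene Lrp6 by -0.16 and the prostacyclin synthase gene Ptgis by -0.13, with limma adjusted p between 0.613 and 0.652. Nos3 was chosen for its known link to caveolin 1 after its values were seen. It read 14.09, 13.55, 13.38 and 13.70 in EKO arrays, against 14.45, 13.45, 13.94 and 13.98 in control arrays, a difference of -0.28 (SE 0.22, limma adjusted p = 0.692). On control array 2, where Cav1 was highest, Nos3 was at its lowest for that group. On EKO array 2, where Cav1 was lowest, Nos3 was low as well (13.55), with only EKO array 3 (13.38) below it in that group. The relation of Nos3 to Cav1 over arrays was not tested.

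**Figure D5:**
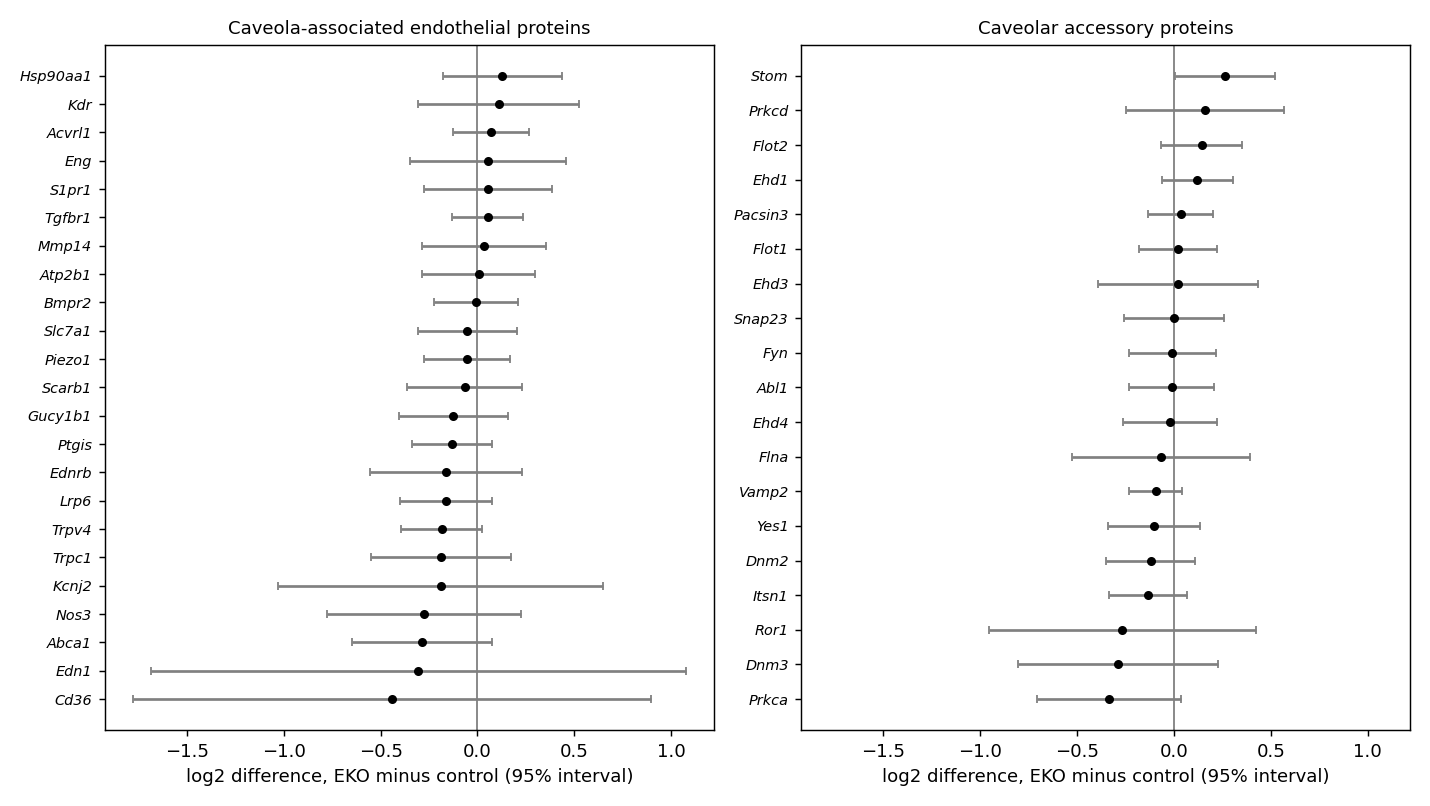
Difference in log2 expression, EKO minus control, with 95% confidence intervals from limma (4 arrays a group) for the tested genes of the list of endothelial proteins linked to caveolae (left, 23 genes) and the list of caveolar accessory proteins (right, 19 genes), ordered by difference. All intervals but that of Stom include 0, and none of the genes passed the adjusted threshold. Several of these genes, Prkca, Trpv4 and Kdr among them, lay on all 8 arrays below the 95th percentile of the neg controls.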

How the data were processed

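RNA from 8 single aortas (4 EKO, 4 control) was measured on Affymetrix Mouse Transcriptome Array 1.0. The log2 values are those the authors deposited, produced with the SST-RMA method of Expression Console according to the labels. Array medians over all probe sets still ran from 6.10 to 6.24 in EKO and from 6.06 to 6.15 in control arrays. Centring used the median of each array over its probe sets other than controls. It moved the median difference over all genes to -0.09. The version and a genome build are not given in the sources used here. Platform symbols were updated through RefSeq (GRCm38.p6), and 30604 probe sets had 1 symbol. The one with the highest mean stood for a gene. Genes with a mean above 6.14 (the median over probe sets) entered a limma 3.58.1 fit in R 4.3.3 (lmFit, eBayes, no covariates), and p-values were adjusted by Benjamini and Hochberg's method, with a threshold of 0.05. The fit was tested on simulated data. Correlations over arrays used exact permutation tests over all orders of the 8 arrays (numpy 2.4.6), adjusted within their family. For deviations from the group means the p-values of this test are not exact. Precision is limited by the number of arrays, and the labels give no array batch.

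The members and lists were chosen with earlier results of these data known. The genes named are the members, Mef2c, the 4 genes of each list with the smallest p and the 3 genes most alike to each member by Pearson r, leaving out predicted, clone, odorant and pheromone receptor, small RNA and pseudogene symbols. Also named are markers, Cav3 and Cavin4, which were not tested, and Nos3, chosen after its values were seen. Markers of 11 cell types were listed, and the Schwann cell list had 0 tested genes. List means were 8.71 in EKO and 9.04 in control arrays for fibroblasts, 6.65 in EKO and 6.62 in control for skeletal muscle, 7.52 in EKO and 7.54 in control for macrophages, 6.66 in EKO and 7.46 in control for mesothelium, 7.12 in EKO and 7.28 in control for lymphatic endothelium, and 13.4 in EKO and 14.4 in control for red cells (1 tested gene). The exact permutation p of these 6 lists was 0.114 or more. Alternatives covered the level filter, normalization, the variance model, covariates, a replicate block and leaving out each array. Pairs of arrays with the same replicate number deviated from their group means with r of -0.160, 0.206, -0.242 and 0.130. The labels do not say whether the numbers pair the samples, and these r cannot settle it, since a weak pairing could leave them near 0.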

Additional observations from a re-analysis of the deposited data

Results flagged for a closer look

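In each group of 4 arrays, an array was looked at again where its gap to the nearest other made up nearly the whole range of the group. This was tested in 40 groups, and 6 were found. Chance gives such a gap in about 1 of 20 independent, unselected groups of normal values. The groups here are not independent and the list genes were picked by p, so 6 of 40 cannot be read as an excess. Cav1 on control array 2 read 14.74, with the next control array at 14.37. Cav2 on the same array read 13.44, with the next at 13.14. Stom on control array 1 read 13.09, with the next at 12.72. Among EKO arrays, Ptgis read 12.34 on array 1 (next 12.04) and Prkca 7.94 on array 4 (next 7.58). The endothelial marker mean was 12.57 on EKO array 2, below the next EKO array at 12.70. Emcn, 1 of its markers, read 8.18 on that array, against 9.09 to 10.20 on the other EKO arrays.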

How the results depend on the processing

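No alternative brought a caveolae gene past the adjusted threshold. The lowest adjusted p over all alternatives was 0.460 (Plvap) and 0.464 (Cav1), and Cav1, Ehd2, Pacsin2 and Plvap kept their sign in each. The sign of Cavin1 turned with quantile normalization (0.0059) and with adipocyte markers as a covariate (0.025). That of Cavin2 turned with quantile normalization (-0.062) and with arrays centred on the median (-0.069), and that of Mef2c with quantile normalization (0.015) and smooth muscle markers as a covariate (0.028). With each array left out in turn the differences ranged from -0.27 to -0.14 for Cav1, from -0.11 to 0.013 for Cav2, from -0.033 to 0.042 for Cavin1, from -0.094 to 0.068 for Cavin2, from -0.11 to 0.020 for Cavin3, from -0.089 to -0.012 for Ehd2, from -0.18 to -0.044 for Pacsin2, from 0.044 to 0.52 for Plvap and from -0.12 to 0.035 for Mef2c. The number of genes at an unadjusted p under 0.05 was 1449, and 2714 with no level filter and 808 with the filter at the 75th percentile, which test more and fewer genes, and it ranged from 969 to 2002 with an array left out. The replicate number as a block left the differences as they were (Cav1 -0.24), with 0 genes past the adjusted threshold and 1259 at an unadjusted p under 0.05. Centring on the array median turned the sign of r for Cav1 with adipocyte (0.246), smooth muscle (0.148) and endothelial markers (0.358), for Cav2 with adipocyte (0.066) and smooth muscle markers (0.056), for Cavin3 with adipocyte (0.302) and smooth muscle markers (0.118), and for Pacsin2 (0.388) and Plvap (-0.104) with endothelial markers. Quantile normalization did so for Cav1 (0.184) and Plvap (-0.025) with endothelial markers. Deviations from the group means did so for Cav1 with smooth muscle (0.230) and endothelial markers (0.137) and for Plvap with endothelial markers (-0.053). None of these relations passed under any setting, and the cause was not tested. Each member has a single probe set, so the alternative with another probe set was not run.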
